A study of Mus musculus with 4 samples.

Results

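Genes that make and spend glutathione, the peroxiredoxins and thioredoxins, the superoxide dismutases, catalase and the metallothioneins were read in endothelial cells (ECs) of the mouse dura mater and brain. Members were taken by gene symbol alone: names beginning with Gsta, Gstm, Gstp, Gstt, Gsto, Gstk or Mgst, numbered Gpx, Prdx, Txn, Txnrd and Sod genes, and Gclc, Gclm, Gss, Gsr, Cat, Nqo1, Nfe2l2, Mt1 and Mt2. Of the 23282 symbols listed, 55 were members, each on 1 line. The dura mater is the outer membrane between skull and brain. The 4 libraries were made from C57BL/6J mice at 8 weeks, 2 from ECs of the brain parenchyma (brain ECs) and 2 from ECs of the dura mater (dura mater ECs), and the labels name no treatment. Cells were sorted for CD31, an endothelial surface protein, and against CD45 and TER-119, which mark leukocytes and erythroid cells. The brain cells alone were first enriched on magnetic beads, so the bead step and the tissue cannot be told apart. Libraries were made with a QuantSeq kit that takes 1 read near the 3′ end of a transcript, so that counts do not grow with gene length. Whether a library came from 1 mouse or a pool is not stated, so p-values measure only the spread between these libraries, which may be technical.

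Cells make glutathione, a small thiol, in a first step by glutamate-cysteine ligase and a second by glutathione synthetase, and glutathione reductase restores it after use. Glutathione peroxidases spend it on peroxides, while glutathione S-transferases join it to reactive compounds. Peroxiredoxins remove peroxides with electrons from thioredoxin, superoxide dismutases turn superoxide into hydrogen peroxide, and catalase breaks that peroxide down. NRF2, the product of Nfe2l2, is a transcription factor that switches on many of these genes when KEAP1 no longer holds it back. Metallothioneins bind zinc and copper. ECs of brain vessels form the blood-brain barrier, and glutathione S-transferases there are part of its handling of foreign compounds.

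The libraries held 13518973 to 16096203 counts, and 9350 to 11803 symbols had at least 1 count. A count of 3 in 1 library, the most that a reading of 0 allows by counting error alone, corresponded to 0.184 to 0.227 CPM. CPM is the count as a share of the library scaled by the trimmed mean of M values (TMM). The 8 endothelial markers, Cldn5, Pecam1, Cdh5 and Kdr among them, were counted in each library and held 0.510% to 0.664% of its counts, which fits the endothelial label. Erythroid markers held 1.81% and 2.47% of counts in brain ECs against 0.150% and 0.0796% in dura mater ECs, 3 of 7 tested passed the edgeR test as lower in dura mater ECs, and Slc4a1 was at 0 in all 4 libraries. Fibroblast markers held 0.254% and 0.217% against 1.12% and 1.14%, most of it Mgp; 5 of 5 tested had a log2 fold change above 0, and 1 passed. Of the defining fibroblast genes, Dcn had 16 and 15 counts against 1184 and 1664, whereas Pdgfra had at most 1 count in any library. In bulk RNA, fewer cells of a type and less RNA per cell cannot be told apart. Each other list (mural cells, astrocytes, microglia and macrophages, oligodendrocytes, neurons) held at most 0.114% of a library.

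Over all genes, 57 of 9347 passed the quasi-likelihood test of edgeR with an adjusted p under 0.05. The common biological coefficient of variation between replicates was 1.39.

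Of the 55 members, 38 had enough counts to be tested, and 0 passed edgeR's threshold in either direction, where 0.428% of all tested genes passed as higher and 0.182% as lower in dura mater ECs. At an unadjusted edgeR p under 0.05 there were 4 members. Higher in dura mater ECs were Gclc, Gpx1 and Gpx3, or 7.89% of the 38 members, beside 7.04% of all tested genes. Gstk1 was lower, which is 2.63% of the members beside 2.97% of all genes. DESeq2 called 3 members at an adjusted p under 0.05, Gpx3 and Gclc as higher (6.6% of all tested genes) and Gstm7 as lower (2.03%). The groups did not overlap in CPM for 10 members that were higher in dura mater ECs (26.3%, against 26.2% of all genes) and for 6 that were lower (15.8%, against 16.9%). The median log2 fold change of the 38 members was −0.09, beside −0.01 for all genes, and 16 members (42.1%) lay above 0, beside 49.8% of all genes. Without brain replicate 2 the median was 0.47 over 44 members tested, and 32 lay above 0. Over all genes the median was then 0.95, and 7258 of 11596 lay above 0. Without brain replicate 1 the median was 0.25 over 45 members, and 24 lay above 0. For all genes it was 1.03, with 7263 of 11591 above 0. Without dura mater replicate 1 the median was −0.43 over 44 members, beside 0.14 for all genes. Above 0 lay 18 of these members, beside 6025 of 11376 genes. Without dura mater replicate 2 it was −0.105 over 40 members, beside −0.192 for all genes. Here 20 members lay above 0, beside 4692 of 10054 genes. Summed over the 55 members, these genes held 0.530% and 0.581% of counts in the brain and 0.609% and 0.503% in the dura mater, and these ranges overlap.

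**Figure D1:**
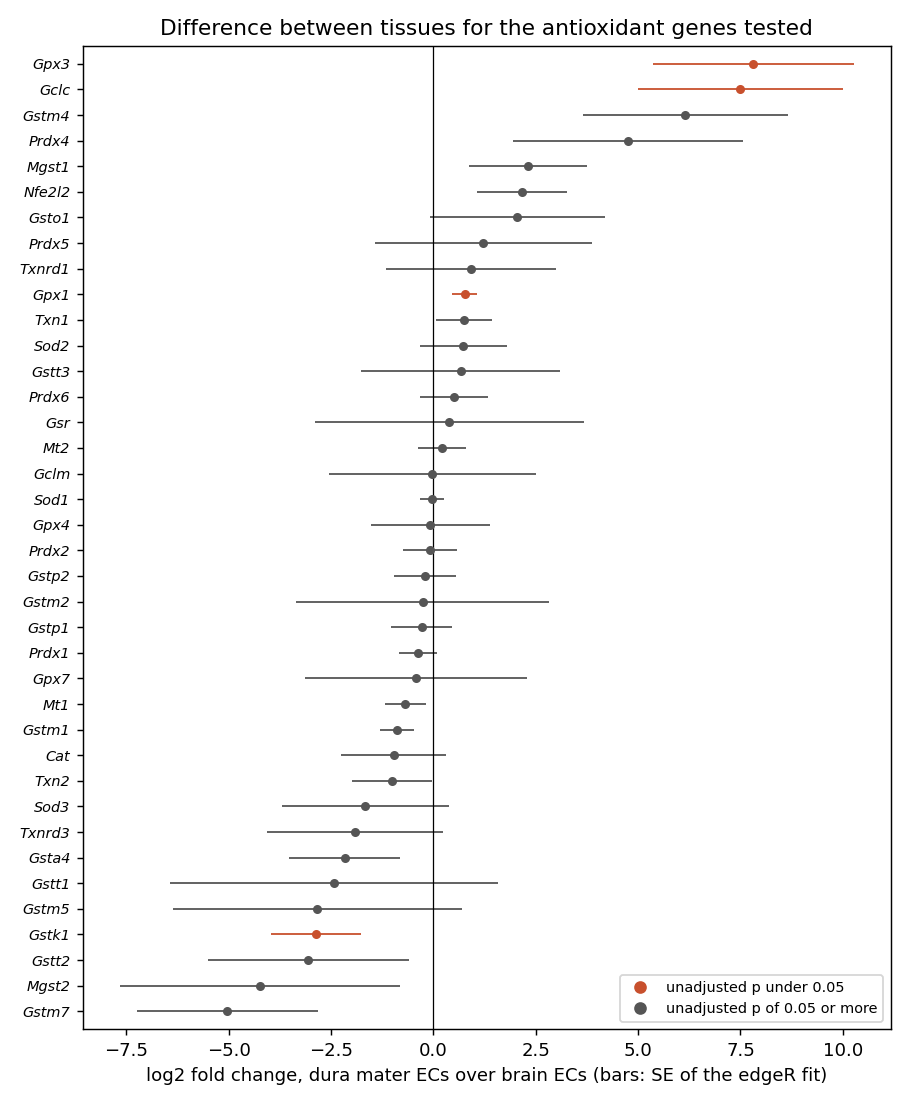
Log2 fold change of dura mater ECs over brain ECs for the 38 members tested, in order of size, with the standard error (SE) of the edgeR fit as bars; colour marks an unadjusted p under 0.05. Gpx3 and Gclc lie highest at 7.82 and 7.49 and Gstm7 lowest at −5.03, while Gpx1 has a short bar beside a difference of 0.76.

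Replicates of a tissue often differed widely. Of the 38 tested, 19 had 64 or more counts in each library (50%, against 45.6% of all tested genes), and their SE had a median of 0.76. Over all genes with as many counts the median SE was 0.91. For the other 19 members it was 2.50. In 12 members (31.6%, against 33.6% of all tested genes) 1 replicate of a tissue had 64 or more counts and the other 7 or fewer. In brain ECs, Gstt3, Txnrd1, Gclm, Gstm2, Gsto1, Gstt1 and Mgst2 were near 0 in replicate 1 and Gpx7 and Gstm5 in replicate 2. In dura mater ECs, Gsr, Gstm7, Gstt1 and Sod3 were near 0 in replicate 1, all of them counted in replicate 2. For the 19 well-counted members the larger replicate exceeded the smaller by a median of 1.89-fold in brain ECs and 1.42-fold in dura mater ECs. Over all 4266 genes with 64 or more counts in each library these medians were 1.77 and 1.54.

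**Figure D2:**
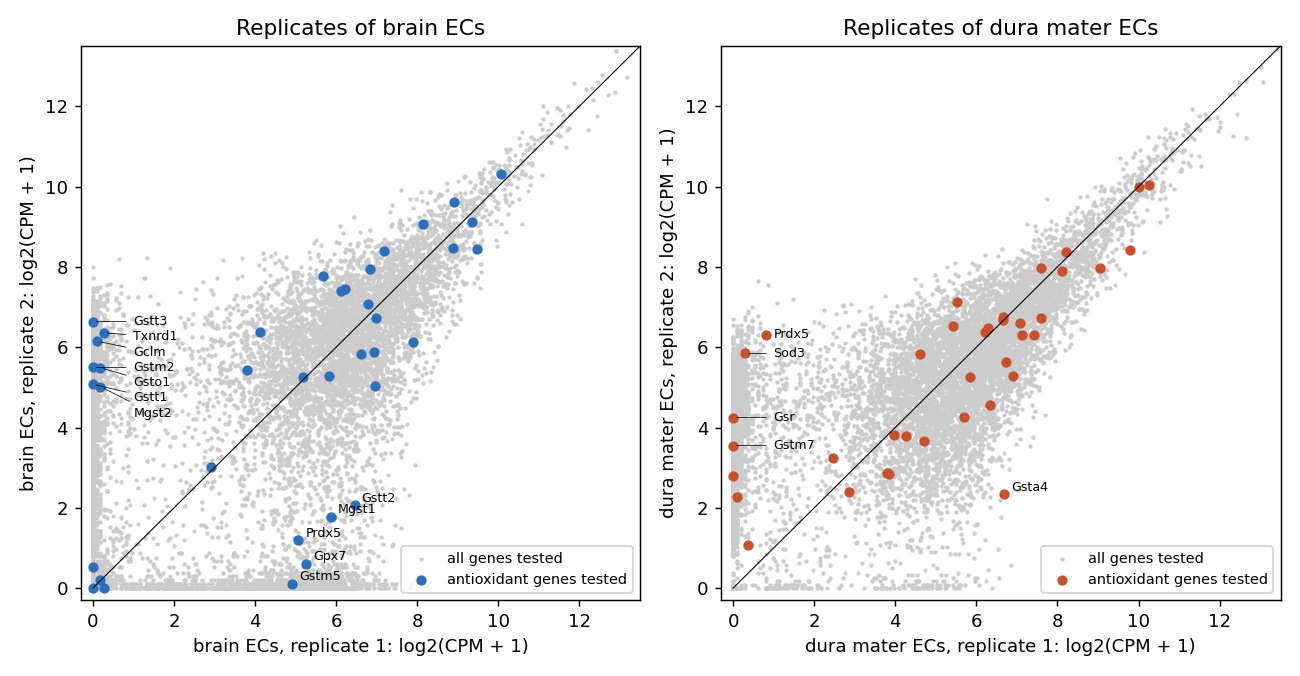
Replicate 2 against replicate 1 on the log2(CPM + 1) scale, for brain ECs (left) and dura mater ECs (right); grey points are the 9347 genes tested, coloured points the 38 members, and the line marks equal values. Members along an axis, such as Gstt3 and Txnrd1 in brain ECs or Sod3 in dura mater ECs, were counted in 1 replicate and nearly missing from the other.

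Of the 17 members not tested, 9 had 0 counts in each library: Gpx2, Gpx5, Gpx6, Gsta1, Gsta2, Gsta3, Gstm6, Gstt4 and Prdx6b. These symbols were not detectable above 0.184 to 0.227 CPM. For Gsta1, Gsta2 and Gpx2, 90.0%, 51.0% and 20.2% of the 50-base words in the last 500 bases of the transcript also occur in other genes, so that for these a count of 0 is uncertain. The other 8 did not pass the filter, which asks for counts in at least 2 libraries, and in 7 of them nearly all counts lay in 1 library. Dura mater replicate 2, the library with the most counts, held nearly all the counts of 5 of them, with 256 for Gss, 219 for Mgst3, 119 for Gsto2, 88 for Txnrd2 and 77 for Gpx8. Prdx3, a mitochondrial peroxiredoxin, had 233 counts in brain replicate 2 and 0 in each of the other libraries. Nqo1, a quinone reductase often used as a readout of NRF2, had 164 counts in dura mater replicate 1 and at most 2 elsewhere. Gstm3 had at most 6 counts in any library.

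**Figure D3:**
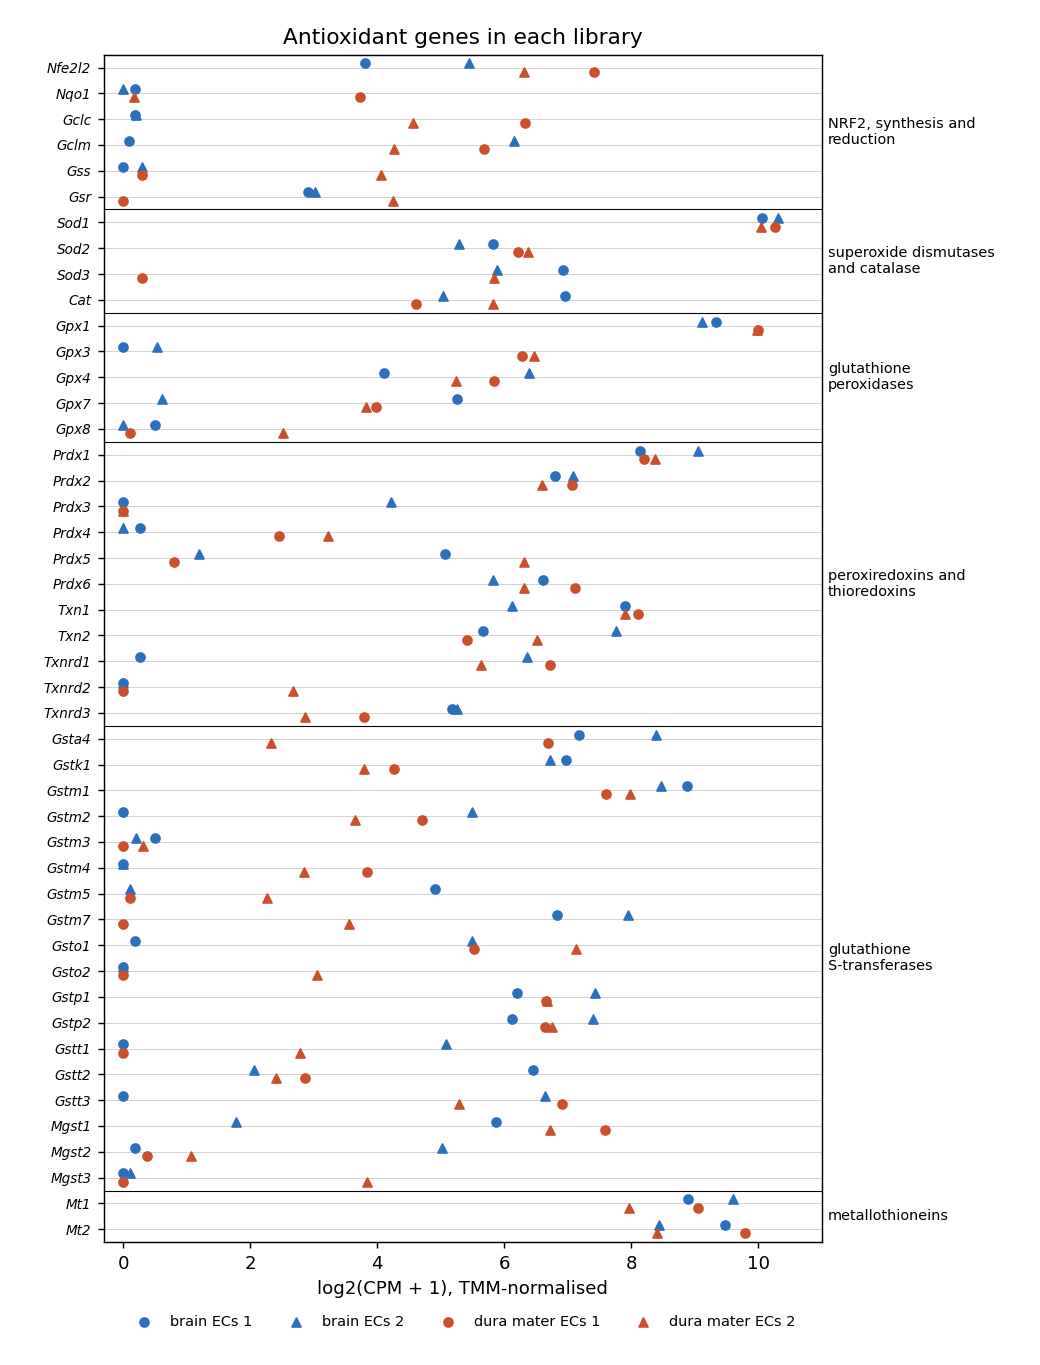
TMM-normalised expression, log2(CPM + 1), of the 46 members with any counts in each of the 4 libraries, ordered by role; blue marks brain ECs, red dura mater ECs, circles replicate 1 and triangles replicate 2. Sod1, Gpx1, Prdx1, Mt1 and Mt2 lie to the right in all libraries, whereas Gclc and Gpx3 lie near 0 in both brain libraries and above 4 in both dura mater libraries.

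NRF2 itself came first. Nfe2l2 (chromosome 2, 75675513 to 75704641, minus strand, GRCm38) had 188 and 561 counts in brain against 2270 and 1281 in dura mater. Both dura mater libraries lay above both brain libraries, at 124 ± 64.2 CPM against 27.7 ± 20.8 (SD, n = 2). The log2 fold change was 2.16 (SE 1.10, edgeR adjusted p 0.552), and it did not pass.

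Of the ligase that starts glutathione synthesis, the catalytic subunit Gclc (chromosome 9, 77754535 to 77794485, plus strand) had 2 and 2 counts for brain and 1062 and 371 for dura mater ECs. This is a ratio of 334 between the summed counts, with a 95% interval of 130 to 1228 that covers counting error only. Its log2 fold change was 7.49 (SE 2.50, edgeR adjusted p 0.435, DESeq2 adjusted p 0.00104), and adjusted p ran from 0.00104 to 0.881 over the alternatives. The modifier subunit Gclm (chromosome 3, 122245557 to 122270732, plus strand), which makes the ligase more efficient, had 1 and 927 counts in the brain and 679 and 297 in the dura mater. Its groups overlapped, and its log2 fold change (−0.03, SE 2.53, edgeR adjusted p 1.00) joined a brain replicate near 0 and another above both dura mater libraries. In brain replicate 2 the modifier subunit was therefore well counted while the catalytic subunit had 2 counts. Gsr, the reductase, had 95 and 94 counts in brain against 0 and 294 in dura mater, so the dura mater replicates lay on either side of the brain ones.

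Binding sites of NRF2, antioxidant response elements, were sought in the 250 bases before the RefSeq start sites (GRCm38.p6) as the core TGACNNNGC on either strand. Of the members, 48 had a promoter entry, and 10 held the core (20.8%, against 11.5% of all 27025 genes in that table). They were Gclm, Gsta3, Gstm5, Gstm7, Mgst1, Mt2, Nfe2l2, Prdx1, Sod1 and Txnrd1. Gclc, Gsr, Gsta4, Gstt2, Prdx6, Prdx6b and Sod3 had no promoter entry and were not searched, nor were bases further from the start. A match is a run of letters, not a shown site. Stretches around the core are given for 6 of these genes because their counts took different courses, each on the gene's own strand with the core in capitals, which reads as its reverse complement in Gclm, Txnrd1, Prdx1 and Mgst1. They lie at chr2:75704870-75704913, minus strand (Nfe2l2), chr3:122245398-122245456, plus strand (Gclm), chr10:82859089-82859147, plus strand (Txnrd1), chr4:116685441-116685499, plus strand (Prdx1), chr6:138140446-138140504, plus strand (Mgst1) and chr3:107931710-107931768, minus strand (Gstm7).
Nfe2l2: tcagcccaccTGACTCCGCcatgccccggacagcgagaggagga
Gclm: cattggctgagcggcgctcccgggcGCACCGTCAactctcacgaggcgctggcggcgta
Txnrd1: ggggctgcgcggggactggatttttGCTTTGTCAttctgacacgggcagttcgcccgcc
Prdx1: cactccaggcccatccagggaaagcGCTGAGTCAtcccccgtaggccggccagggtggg
Mgst1: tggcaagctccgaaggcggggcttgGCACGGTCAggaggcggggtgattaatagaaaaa
Gstm7: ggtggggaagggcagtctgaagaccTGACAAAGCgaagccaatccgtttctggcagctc
Beside these, Nfe2l2 and Mgst1 had log2 fold changes of 2.16 and 2.30, Txnrd1 and Prdx1 of 0.91 and −0.38, and Gclm and Gstm7 of −0.03 and −5.03. These genes were picked for unlike counts, so both signs among them follow from that choice. Of the remaining members with the core, Gstm5, Mt2 and Sod1 had log2 fold changes of −2.83, 0.21 and −0.03. Gsta3 had 0 counts in each library.

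The genes around NRF2 were read from a list of 8 regulators and a list of 14 further targets. All 8 regulators were tested, and 0 passed in edgeR or DESeq2 or had an unadjusted p under 0.05. Keap1, the repressor, had 1018 and 1716 counts for brain and 235 and 921 for dura mater ECs, and Bach1, a competing repressor, 134 and 5 against 333 and 289. Their log2 fold changes were −1.43 and 2.11, with edgeR adjusted p of 0.879 and 1.00. Of the further targets 13 were tested, 0 passed in edgeR and 2 passed as higher in DESeq2, beside 6.6% of all genes. Above 0 lay 10 of 13, beside 49.8% of all genes, and the median log2 fold change was 0.88, beside −0.01. Unadjusted p was under 0.05 for 2 of them, Srxn1 and Me1, both higher, beside 7.04% of all genes. Srxn1, which repairs overoxidised peroxiredoxins, had 4 and 5 counts in the brain and 830 and 414 in the dura mater (log2 fold change 6.55, SE 2.60, edgeR adjusted p 0.466, DESeq2 adjusted p 0.0120). Me1, malic enzyme, had 2 and 1 counts against 696 and 327 (7.20, SE 2.79, edgeR adjusted p 0.466, DESeq2 adjusted p 0.00823) and is named after its values were seen. Hmox1, heme oxygenase, had 504 and 10 counts in brain against 1488 and 553 in dura mater, and its groups overlapped. Slc7a11, which imports cystine for glutathione, had 2 counts in each library but dura mater replicate 2, where it had 205.

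Superoxide dismutases and catalase comprised 4 members, all tested. Sod1, the cytosolic superoxide dismutase (chromosome 16, 90220754 to 90226329, plus strand), had the smallest SE of the 38 members, with 15441 and 16778 counts for brain and 16444 and 17244 for dura mater ECs. It stood at 1167 ± 144 and 1141 ± 120 CPM, and its log2 fold change was −0.03 (SE 0.30, edgeR adjusted p 1.00). Of the 50-base words in the last 500 bases of its transcript, 30.2% also occur in the transcript of Gm8566, so some reads may belong there. Sod2, the mitochondrial form, had 805 and 502 counts against 985 and 1345 and did not overlap between tissues, but its log2 fold change of 0.74 had an SE of 1.06 (edgeR adjusted p 1.00). Sod3, the secreted form, had 1760 and 771 counts in the brain and 3 and 922 in the dura mater. By CPM both dura mater libraries lay below both brain libraries, although the gap between brain replicate 2 and dura mater replicate 2 was small, at 58.3 against 56.5 CPM. Cat, catalase, had 1789 and 420 counts against 316 and 906 (log2 fold change −0.97, SE 1.28, edgeR adjusted p 1.00). Red cells are rich in catalase and in Prdx2, and erythroid markers were higher in brain ECs, as given above. Prdx2 had nearly equal counts in the tissues, and the part of red cells in the Cat counts was not tested.

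Glutathione peroxidases had 8 symbols and 4 tested members. Gpx1, the widespread cytosolic form (chromosome 9, 108338903 to 108340343, plus strand), had 9377 and 7337 counts in brain against 13716 and 16570 in dura mater. The 2 dura mater libraries were nearly equal in CPM and lay above both brain libraries, at 1019 ± 5.53 against 601 ± 65.3. The log2 fold change of 0.76 had an SE of 0.31 (unadjusted p 0.0493, edgeR adjusted p 0.466). Gpx3, the secreted plasma form (chromosome 11, 54902453 to 54910377, plus strand), had 0 and 6 counts for brain and 1028 and 1432 for dura mater ECs. It stood at 0.227 ± 0.321 against 82.2 ± 7.82 CPM. Its log2 fold change of 7.82 (SE 2.45) missed edgeR's threshold (unadjusted p 0.0177, adjusted p 0.396) and passed in DESeq2 (adjusted p 0.000184). With brain replicate 1 or brain replicate 2 left out it passed in edgeR too, with adjusted p of 0.0129 and 0.000299 and log2 fold changes of 7.08 and 9.23, but not with a dura mater library left out (adjusted p 0.771 and 0.799). Fibroblast markers were also higher in both dura mater libraries, and their part in the Gpx3 counts was not tested. Gpx4, which removes lipid peroxides, had 236 and 1094 counts in the brain and 759 and 603 in the dura mater (log2 fold change −0.08, SE 1.45, edgeR adjusted p 1.00). Its transcript end shares 88.9% of 50-base words with the pseudogene Gpx4-ps2, so its counts are uncertain. Gpx7, an enzyme of the endoplasmic reticulum, had 538 and 7 counts against 198 and 215. Summed over the 8 Gpx symbols, brain libraries stood at 701 and 638 CPM and dura mater libraries at 1171 and 1158 CPM, most of it Gpx1. As shares of all counts the sums were 0.0702% and 0.0611% against 0.116% and 0.117%.

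Peroxiredoxins and thioredoxins held 12 members, 9 of them tested, and 5 of the 9 lay above 0. Prdx1, a cytosolic peroxiredoxin, had 4090 and 7041 counts in brain against 3954 and 5420 in dura mater, with overlapping groups (log2 fold change −0.38, SE 0.46, edgeR adjusted p 1.00). Prdx2, another cytosolic form, had 1596 and 1779 counts against 1793 and 1568, and Prdx6 had 1412 and 740 against 1854 and 1280. The tissues overlapped for all 3. For Prdx2, 11.5% of exon bases face an antisense gene, and whether counting kept the strands apart is not given. The same holds for Gss and Gstm5, named elsewhere, at 15.4% and 13.9% of exon bases. Prdx4, the form of the endoplasmic reticulum, had 3 and 0 counts for brain and 60 and 137 for dura mater ECs, a ratio of 61.2 with a 95% counting interval of 20.6 to 299 (edgeR adjusted p 0.666). Prdx5 had 473 and 17 counts against 10 and 1282, so that each tissue had a high and a low replicate. Of its exon bases 19.1% face an antisense gene.

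Thioredoxin itself, Txn1, had 3449 and 908 counts in the brain and 3676 and 3904 in the dura mater. Both dura mater libraries lay above both brain libraries in CPM, by little over brain replicate 1 (log2 fold change 0.74, SE 0.68, edgeR adjusted p 0.947). Txn2, the mitochondrial form, had 726 and 2872 counts against 562 and 1481. Txnrd1, the cytosolic thioredoxin reductase, had 3 and 1072 counts in brain against 1401 and 798 in dura mater (log2 fold change 0.91, SE 2.08, edgeR adjusted p 1.00). Its counts split like those of Gclm, near 0 in brain replicate 1 and high in the other 3 libraries. Txnrd3 had 511 and 496 counts for brain and 172 and 102 for dura mater ECs, which did not overlap (log2 fold change −1.92, SE 2.14, edgeR adjusted p 0.996). Of 8 listed partners of thioredoxin 7 were tested and 0 passed in edgeR or DESeq2, with 0 at an unadjusted p under 0.05. Among them Txnip, which inhibits thioredoxin, had 10868 and 4987 counts against 12053 and 17758 (log2 fold change 0.82, SE 0.42, edgeR adjusted p 0.567).

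Glutathione S-transferases were the family with the most symbols, 23, of which 15 were tested and 4 lay above 0 (49.8% of all genes did). Their groups did not overlap for 4 members that were lower in dura mater ECs (Gstk1, Gstm1, Gstm7 and Gsta4), beside 16.9% of all genes, and for 3 that were higher (Mgst1, Gsto1 and Gstm4), beside 26.2%. Summed over the 23 symbols, brain libraries stood at 1168 and 1637 CPM and dura mater libraries at 915 and 822 CPM. Gstk1, a transferase of mitochondria and peroxisomes (chromosome 6, 42245935 to 42250447, plus strand), had 1812 and 1383 counts in the brain and 245 and 210 in the dura mater. At 115 ± 14.5 against 15.6 ± 3.82 CPM the tissues stood well apart and the replicates close together, with a log2 fold change of −2.87 (SE 1.09, unadjusted p 0.0375, edgeR adjusted p 0.466).

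The 7 Gstm genes, cytosolic mu-class transferases, lie side by side on chromosome 3 between 107895821 and 108044894, and neighbours had unlike counts. Gstm1 had 6813 and 4700 counts in brain against 2599 and 4111 in dura mater (log2 fold change −0.89, SE 0.43, edgeR adjusted p 0.516). Gstm7 (107926334 to 107931817, minus strand) had 1642 and 3263 counts for brain and 0 and 175 for dura mater ECs. Its log2 fold change was −5.03 (SE 2.21, edgeR adjusted p 0.470), and it passed in DESeq2 (adjusted p 0.0137). The log2 fold change of Gstm7 was −10.28 without dura mater replicate 2, which held its dura mater counts, and −4.19 without dura mater replicate 1. Its adjusted p was at most 0.478 over the alternatives. Gstm4, the last in the row, lay on the other side, with 0 and 0 counts in the brain and 178 and 101 in the dura mater. Against 3 counts in each brain library this is at least 44.9-fold higher (edgeR adjusted p 0.466). Gstm2 had 0 and 584 counts against 336 and 190, and Gstm5 had 424 and 1 against 1 and 62, so both overlapped. Summed over the 7 symbols, the row stood at 613 and 646 CPM in the brain and 232 and 284 CPM in the dura mater, most of it Gstm1. As shares of all counts this was 0.0614% and 0.0619% against 0.0230% and 0.0288%. Transcript ends of Gstm1 and Gstm3 share 0.887% of their 50-base words, the most of any pair in the row.

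Among the other transferases, Gsta4, an alpha-class enzyme for products of lipid peroxidation, had 2080 and 4410 counts in brain against 1371 and 66 in dura mater (log2 fold change −2.16, SE 1.36, edgeR adjusted p 0.713). The dura mater replicates differed 25.3-fold in CPM. The log2 fold change of Gsta4 was −5.98 without dura mater replicate 1, the higher library, and −1.24 without dura mater replicate 2. Mgst1, a microsomal transferase, had 834 and 32 counts for brain and 2583 and 1711 for dura mater (log2 fold change 2.30, SE 1.44, edgeR adjusted p 0.711). Its log2 fold change was 5.83 without brain replicate 1, the higher brain library, and 1.32 without brain replicate 2. Mgst2 had 416 counts in brain replicate 2 and at most 18 elsewhere. For Gsto1, an omega-class enzyme, brain libraries held 2 and 581 counts and dura mater libraries 604 and 2262 (log2 fold change 2.05, SE 2.14, edgeR adjusted p 0.981). Nearly all its brain counts lay in brain replicate 2. Leaving out that library gave a log2 fold change of 8.33, and leaving out brain replicate 1 gave 0.99. The size of the Gsto1 difference therefore hung on which brain library was kept. Of the theta-class genes, Gstt3 had 0 and 1305 counts against 1597 and 621, Gstt1 0 and 434 against 0 and 96, and Gstt2 1256 and 42 against 84 and 70. The tissues overlapped for each of these genes. Brain replicate 2 held nearly all brain counts of Gstt3 and Txnrd1. Without it their log2 fold changes were 9.18 and 7.78, and without brain replicate 1 they were −0.36 and −0.11. Gstp1 had 1059 and 2279 counts against 1342 and 1645, and Gstp2 had 998 and 2222 against 1331 and 1737. The transcript ends of Gstp1 and Gstp2 share 75.2% of their 50-base words, so their nearly equal counts may hold the same reads.

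**Figure D4:**
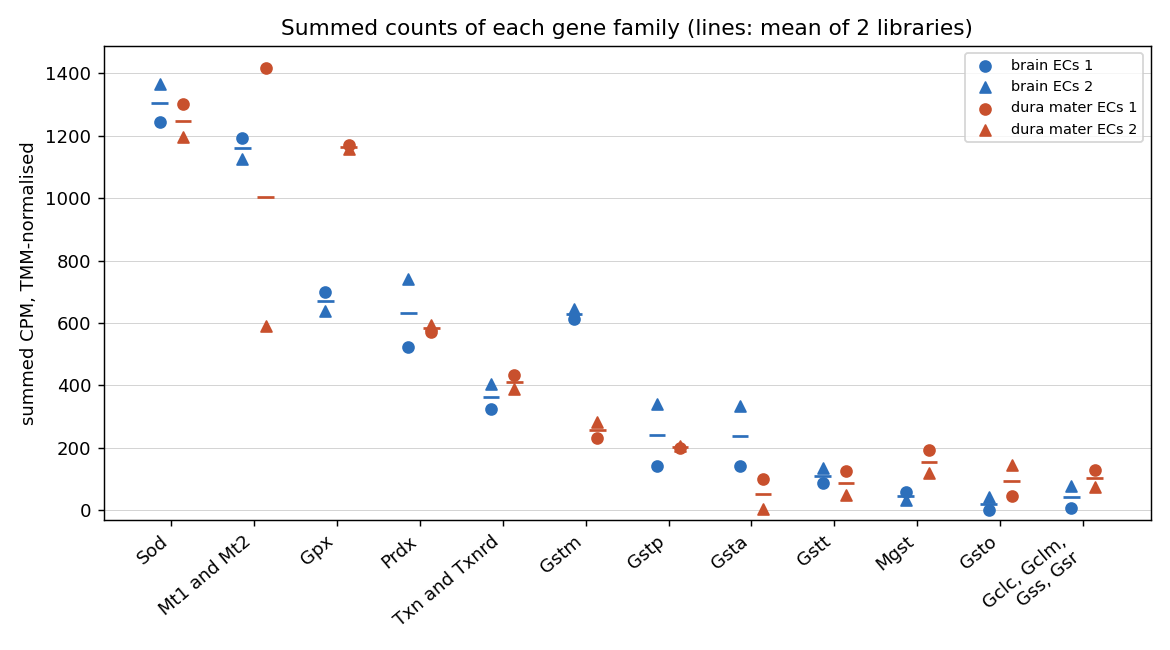
Summed TMM-normalised counts (CPM) of each gene family in the 4 libraries, with a line at the mean of the 2 libraries of a tissue; blue marks brain ECs and red dura mater ECs. The Gstm sums of 232 and 284 CPM in dura mater ECs lie under both brain sums, the Gpx sums of 1171 and 1158 CPM lie over both, and the Sod and Prdx sums overlap. The Gsta sums of dura mater ECs also lie under both brain sums, and the Mgst and Gsto sums over both, Gsto by little.

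A list of 14 other genes of glutathione turnover and reduction had 8 tested. Of these, 0 passed in edgeR and 0 had an unadjusted p under 0.05. In DESeq2 1 passed as lower in dura mater ECs, beside 2.03% of all genes. All 8 lay below 0, with a median log2 fold change of −2.45, beside −0.01 for all genes. Among them, Gstz1 and Glrx2 had 900 and 791 counts in brain replicate 2 and 0 in brain replicate 1. The genes left out by the filter had their counts in dura mater ECs. Ggt5 had 734 in replicate 1, and Ggct, Gstcd and Chac2 had 206, 135 and 84 in replicate 2, with at most 2 in any other library. Ggt1 and Glrx3 had 0 counts in each library. Glrx, a glutaredoxin that uses glutathione to reduce proteins, had 432 counts in brain replicate 2 and at most 33 elsewhere. Glo1 and Hagh, which clear methylglyoxal with glutathione and are named after their values were seen, did not overlap between tissues. Glo1 had 1334 and 2102 counts in the brain and 5 and 227 in the dura mater (log2 fold change −4.11, SE 1.79, edgeR adjusted p 0.469, DESeq2 adjusted p 0.0445). Hagh had 643 and 817 counts against 1 and 216 (−2.97, SE 2.55, edgeR adjusted p 0.927).

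Both metallothioneins were well counted in each library. Mt1 (chromosome 8, 94179082 to 94180327, plus strand) had 6903 and 10327 counts in brain against 7133 and 4084 in dura mater, and Mt2 (94172664 to 94173568, plus strand) had 10370 and 4570 against 11850 and 5551. The tissues overlapped for each gene, with log2 fold changes of −0.68 (SE 0.50, edgeR adjusted p 0.836) for Mt1 and 0.21 (SE 0.58, edgeR adjusted p 1.00) for Mt2. Of the exon bases of Mt2, 73.5% face an antisense gene, so its counts are uncertain. Mt3, the neural metallothionein listed among the astrocyte markers, had 227 counts in dura mater replicate 1 and at most 1 elsewhere. Of the other astrocyte markers, Slc1a3, Slc1a2, Aldoc and Gfap had 915, 863, 256 and 189 counts in that library and at most 5 in either brain library. In dura mater replicate 2 they had 74, 87, 2 and 0. S100b had 9 and 949 counts in brain against 0 and 294 in dura mater. Aqp4 had 0 in each library, and Gja1 was counted in all. The part of such cells in the member counts was not tested.

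Metallothionein genes are known to respond to zinc through metal response elements, whose cores TGCACNC and TGCGCNC were sought on either strand. Of the 48 members with a promoter entry, 14 held a core in the 250 bases before the start (29.2%, against 23.8% of all genes). The windows of Mt1 (chr8:94178839-94179088, plus strand) and Mt2 (chr8:94172368-94172617, plus strand) from RefSeq, GRCm38.p6, are shown since both genes were well counted in each library. Capitals mark the cores, 1 in the Mt1 window and 3 in that of Mt2, the last of which reads as the reverse complement. Bases after the RefSeq start sites were not searched, so these numbers do not compare the whole promoters.
Mt1: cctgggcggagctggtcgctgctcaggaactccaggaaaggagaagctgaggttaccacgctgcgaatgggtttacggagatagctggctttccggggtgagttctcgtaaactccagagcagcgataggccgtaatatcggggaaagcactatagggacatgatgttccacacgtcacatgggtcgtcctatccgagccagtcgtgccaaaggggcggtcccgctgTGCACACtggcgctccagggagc
Mt2: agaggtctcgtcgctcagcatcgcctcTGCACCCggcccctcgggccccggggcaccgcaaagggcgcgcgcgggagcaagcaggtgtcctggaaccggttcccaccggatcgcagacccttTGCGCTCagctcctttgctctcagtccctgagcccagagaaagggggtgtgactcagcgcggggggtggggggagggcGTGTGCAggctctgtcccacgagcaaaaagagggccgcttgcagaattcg
The Mt2 window also holds the antioxidant response element core, 79 bases before the start and apart from the metal response element cores.

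Of the listed genes tested, the zinc carriers Slc30a1 and Slc39a10 had the largest differences relative to their SE. Of 4 listed genes of metal handling 3 were tested, and 0 passed in edgeR. At an unadjusted edgeR p under 0.05, 2 were lower in dura mater ECs, beside 2.97% of all genes. In DESeq2 2 passed as lower, beside 2.03% of all genes. Slc30a1, which exports zinc from the cell, had 12499 and 14636 counts for brain and 2279 and 2616 for dura mater ECs. Its log2 fold change of −2.57 (SE 0.37) had an edgeR adjusted p of 0.0536 and a DESeq2 adjusted p of 4.69e-07. Slc39a10, a zinc importer named after its values were seen, had 11221 and 7960 counts against 1259 and 967 (−3.16, SE 0.46, edgeR adjusted p 0.0544, DESeq2 adjusted p 9.62e-07). Both were several-fold lower in both dura mater libraries. Another listed carrier, Slc39a14, also named after its values were seen, was not tested and had 0 and 1 counts against 1 and 97. Mtf1, the zinc sensor that acts on metal response elements, had 9 and 2 counts in the brain and 14 and 651 in the dura mater, nearly all in 1 library.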

How the data were processed

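The authors deposited raw counts per gene symbol for 4 libraries of sorted ECs (2 of brain, 2 of dura mater), with nothing scaled or filtered. Per the methods of the study, reads were mapped with TopHat and abundances obtained with cufflinks. The submitters' processing notes instead name Bowtie2, edgeR and the build mm10, without roles. The counting step, annotation, use of strand and of molecular identifiers are not given in the sources used here. Groups were taken from sample titles. Counts were tested with the quasi-likelihood test of edgeR 4.0.16 (R 4.3.3), with TMM scaling of library sizes over the genes kept by filterByExpr, tissue as the only term, a prior count of 2 and Benjamini-Hochberg adjustment over 9347 genes. This stands in for cufflinks, which needs alignments, not used here. The SE is the size of the log2 fold change over the square root of F. Gene positions and transcript ends (the last 500 bases, words of 50) are from GENCODE M21 (GRCm38, the assembly of mm10), matched on the symbol for all 55 members. Promoter sequences are from RefSeq. Named genes followed a rule: all members are accounted for, full statistics are given for 14 core members and those with an unadjusted p under 0.05, and Keap1, Bach1, Hmox1, Srxn1, Slc7a11, Txnip, Glrx, Mtf1 and Slc30a1 stand for the lists. Other genes and statistics were added after their values were seen. Members and lists were chosen with earlier results of these data known. The scripts were tested on simulated data, where recovery was required only at a lower coefficient of variation than in these libraries. This does not show what the test can find here. Alternatives were DESeq2 1.42.0, other scalings and filters, a replicate block, a newer dispersion estimate and each library left out.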

Additional observations from a re-analysis of the deposited data

How the results depend on the processing

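Against 57 genes in edgeR, DESeq2 called 807, no filter on low counts 326, at least 10 counts in every library 141, the newer edgeR dispersion estimate 306 and the replicate block 224; leaving out 1 library gave 80 to 740 (740 without brain replicate 1, 701 without brain replicate 2, 97 without dura mater replicate 2). Against 0 members, DESeq2 called 3 (Gpx3, Gclc, Gstm7), and no filter, the newer dispersion estimate and the replicate block 1 each, Gstm7, with 1 to 4 when a library was left out. Against 0 of the other listed genes, DESeq2 called 5, and no filter, at least 10 counts in every library, the newer dispersion estimate and the replicate block 2 each, with 0 to 4 without a library. Under the block the 2 were Slc30a1 (adjusted p 0.000929) and Slc39a10 (adjusted p 0.000392). RLE and library-size scaling called 0 members and 0 listed genes. With a library left out, its tissue's lone library is assumed to vary like the other tissue. Libraries with the same number did not deviate together (r over all genes −0.0208), and no label ties them to the same mice. With the replicate block, log2 fold changes turned sign for Gpx4 (0.31), Gstm2 (2.68), Gclm (2.89), Gpx7 (1.47) and Gsr (−2.05), and that of Gstm7 was −6.81 (adjusted p 0.0481). Sod1 turned to 0.01 with library-size scaling and to 0.03 with at least 10 counts in every library, and Gclm to 0.04 with library-size scaling. Leaving out a library turned the sign of 21 of 38 members in at least 1 case: Cat (−1.73 to 0.25), Gclm (−1.09 to 7.39), Gpx4 (−0.86 to 1.46), Gpx7 (−1.46 to 4.36), Gsr (−5.59 to 1.24), Gstm2 (−1.29 to 7.09), Gstm5 (−6.08 to 3.21), Gstp1 (−0.83 to 0.39), Gstp2 (−0.76 to 0.51), Gstt1 (−6.84 to 4.45), Gstt2 (−4.06 to 0.67), Gstt3 (−0.52 to 9.18), Mgst2 (−5.29 to 1.56), Mt2 (−0.78 to 0.79), Prdx1 (−0.81 to 0.09), Prdx2 (−0.49 to 0.11), Prdx5 (−4.27 to 4.72), Prdx6 (−0.11 to 0.92), Sod1 (−0.29 to 0.05), Txn2 (−1.77 to 0.33), Txnrd1 (−0.11 to 7.78). The other 17 members kept their sign in each alternative in which they were tested, with a library left out over these ranges: Gclc (6.23 to 8.08), Gpx1 (0.59 to 0.83), Gpx3 (7.08 to 9.23), Gsta4 (−5.98 to −1.24), Gstk1 (−3.28 to −2.66), Gstm1 (−1.14 to −0.73), Gstm4 (5.45 to 6.51), Gstm7 (−10.28 to −4.19), Gsto1 (0.99 to 8.33), Mgst1 (1.32 to 5.83), Mt1 (−1.47 to −0.26), Nfe2l2 (1.36 to 3.19), Prdx4 (4.20 to 5.53), Sod2 (0.42 to 0.99), Sod3 (−7.94 to −0.81), Txn1 (0.05 to 1.86), Txnrd3 (−2.66 to −1.51). The causes were not tested. Depth limits what can be said of the 9 members at 0.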
